A study of Mus musculus with 30 samples.

Results

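The mRNA levels of 6 textbook glucocorticoid-induced genes, Fkbp5, Tsc22d3, Zbtb16, Errfi1, Sgk1 and Glul, were followed in brown preadipocytes with and without the glucocorticoid receptor. The genes were listed by name as known direct targets of the receptor, out of 23109 genes or unmatched RefSeq transcripts in the tables. All 6 were found, and each was read from the RefSeq transcript with the most reads over 8 RNA libraries. Fkbp5 is NM_010220 on chromosome 17, Tsc22d3 is NM_010286 on chromosome X and Zbtb16 is NM_001033324 on chromosome 9. Errfi1 is NM_133753 on chromosome 4, Sgk1 is NM_011361 on chromosome 10 and Glul is NM_008131 on chromosome 1.

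The cells were brown preadipocytes of newborn C57BL/6J mice, taken from the interscapular depot and immortalised with SV40T; loxP sites flank part of the receptor gene, Nr3c1, on both alleles (GR-flox/flox). They were infected with an empty retrovirus (Vec, receptor gene intact) or with retroviral Cre recombinase (Cre, receptor gene deleted), so both genotypes share the floxed alleles, the immortalisation and an infection. Cells were plated 4 days ahead and, at confluence, received dexamethasone (2 µg/ml), indomethacin (0.125 mM), IBMX (0.5 mM), insulin (0.02 µM) and T3 (1 nM) for 4 hours. The mix thus held a receptor ligand (dexamethasone) together with an agent that raises cAMP (IBMX), and no library received one without the other. RNA was taken before induction (D0), at 4 hours (4h), on day 2 (D2) and on day 7 (D7), with 1 library for each genotype and time. The sources used here do not give the medium of the later days. Of the 30 samples in the series, the 22 ChIP samples were not analysed here.

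Glucocorticoids such as dexamethasone enter the cell and bind the glucocorticoid receptor, which moves to the nucleus and binds DNA at or near its target genes. The genes described here respond within hours in many cell types and are used as readouts of receptor activity. They act at different points. Fkbp5 encodes a co-chaperone that lowers the receptor's own affinity for ligand, Tsc22d3 encodes the anti-inflammatory protein GILZ, and Zbtb16 encodes the zinc-finger transcription factor PLZF. Errfi1 encodes an inhibitor of the EGF receptor, Sgk1 a protein kinase downstream of PI3 kinase, and Glul glutamine synthetase.

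With 1 library per group there was no replicate and no test between 2 libraries. Library totals ranged from 7.7 M reads (Cre 4h) to 28.9 M reads (Vec D2), and 11471 to 12176 genes per library reached an RPKM of 1. RPKM, the deposited unit, scales the reads of a transcript to its length and to the library's total. A gene was counted as higher or lower when log2(RPKM + 1) differed by at least 1 between 2 libraries and its RPKM was at least 1 in at least 1 of them. This scale understates the change of low genes. Ratios below are ratios of RPKM and carry exact 95% binomial intervals on the reads, which cover counting error only. Nr3c1 had 24.3, 12.9, 21.3 and 32.1 RPKM in Vec at D0, 4h, D2 and D7, against 4.81, 4.04, 8.07 and 6.67 RPKM in Cre. Its level was thus lower in Cre at every time, by ratios from 2.64 at D2 to 5.04 at D0, while reads of its transcript remained in all Cre libraries. The count covers the whole transcript and does not separate the deleted exons from the rest.

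The members' promoters were examined for sequence first. RefSeq tables of assembly GRCm38.p6 held 13 promoter windows for 5 of the 6 genes (Zbtb16 was not matched), each from 250 bases before to 50 bases after an annotated start. The glucocorticoid receptor motif, searched as GNACANNNTGTNC on both strands, was in 1 of these windows, an Sgk1 start, and in 156 of 32817 promoter windows of all genes (0.48%). The cAMP response element TGACGTCA was also in 1 of them, an Errfi1 start, and in 1.79% of all windows. The 250 bases before these 2 starts are shown because they are the members' windows with a full match to either motif, which stands in capitals. The Sgk1 stretch lies at chr10:21993640-21993889 and the Errfi1 stretch at chr4:150854820-150855069, both on the plus strand.
Sgk1: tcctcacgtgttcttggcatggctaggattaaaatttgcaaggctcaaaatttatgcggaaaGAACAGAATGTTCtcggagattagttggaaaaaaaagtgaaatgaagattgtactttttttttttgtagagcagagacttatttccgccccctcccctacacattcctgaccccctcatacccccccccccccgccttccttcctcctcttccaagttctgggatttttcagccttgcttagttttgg
Errfi1: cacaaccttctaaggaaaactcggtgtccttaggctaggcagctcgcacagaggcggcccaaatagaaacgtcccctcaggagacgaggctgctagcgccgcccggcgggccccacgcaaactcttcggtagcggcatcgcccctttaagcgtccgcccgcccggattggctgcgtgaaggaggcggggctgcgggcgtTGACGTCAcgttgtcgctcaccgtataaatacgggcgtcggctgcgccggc
The Sgk1 match begins at position -188 and the Errfi1 match at position -51, counted from the annotated start. These are matches of letters and not measured binding, and windows of this length do not cover distal sites. Windows were matched by symbol, so the starts shown are not tied to the transcripts followed.

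In Vec, all 6 genes were higher at 4h than at D0, where 5.52% of 12159 genes were higher by the same rule. In Cre, 1 of the 5 members that passed the filter, Glul, was higher at 4h, against 3.67% of 12176 genes. Its difference of 1.01 was just past the rule, and with a pseudocount of 5 in place of 1 it was 0.75 and no member passed. At D0, 0 of the 5 members tested were lower in Cre than in Vec (0.275% of 12007 genes) and 0 were higher (0.158%), and every interval of the D0 ratio included 1. For Zbtb16, with 8 and 2 reads, that interval was 0.819 to 39.7. At 4h all 6 were lower in Cre (2.59% of 11897 genes), at D2 5 of 6 (1.54% of 11918) and at D7 2 of 6 (3.12% of 12480). The median of Cre minus Vec over the 6 members, in log2(RPKM + 1), was -2.47 at 4h, -2.23 at D2 and -0.20 at D7, beside 0.11, -0.04 and 0.03 over all genes. Cells that express a gene and RNA per cell cannot be told apart in these bulk libraries.

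**Figure D1:**
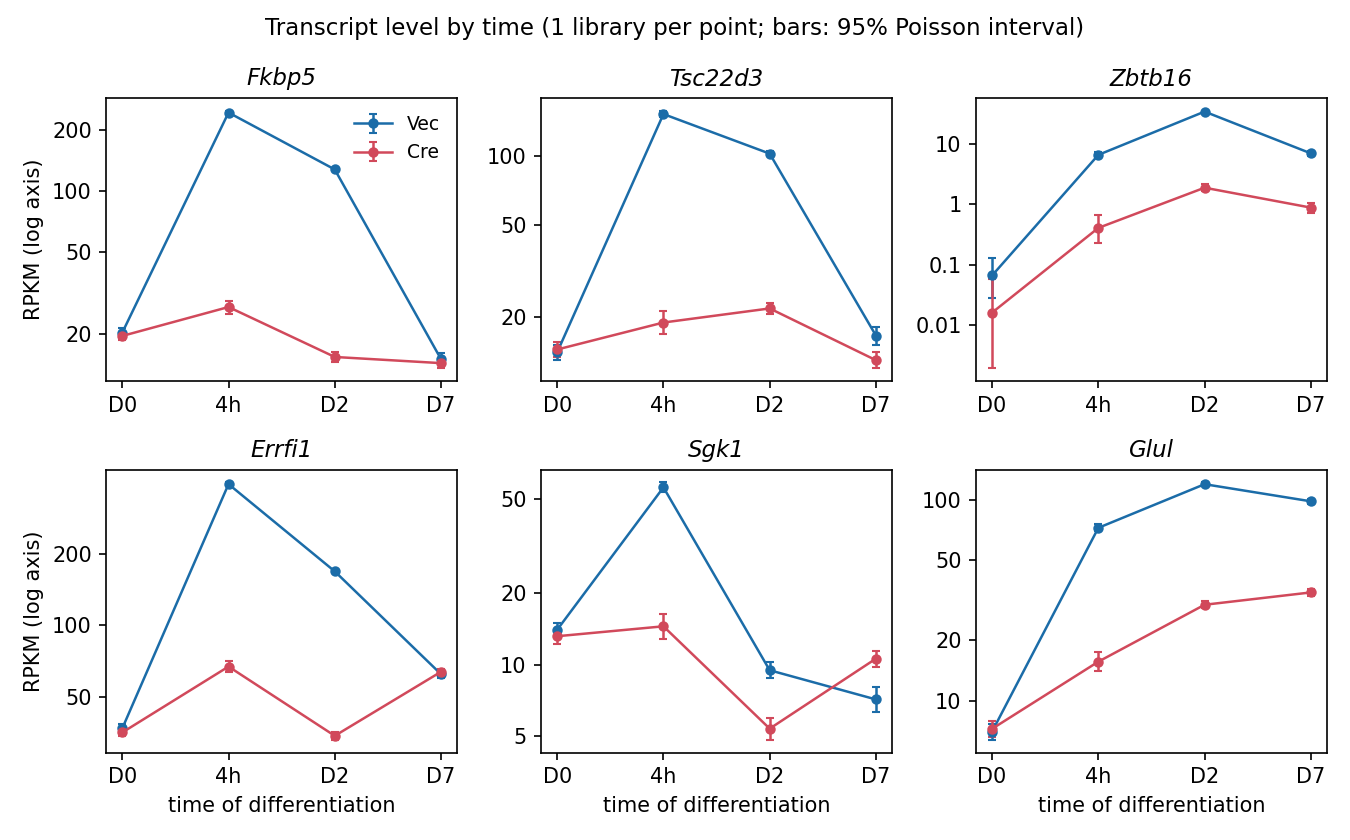
RPKM (log axis) of the 6 genes at D0, 4h, D2 and D7 in Vec (blue) and Cre (red), 1 library per point, with exact 95% Poisson intervals of the reads as bars. All 6 genes lie higher in Vec than in Cre at 4h, and at D7 Zbtb16 and Glul keep the widest gaps (6.91 against 0.878 RPKM and 98.3 against 34.6 RPKM).

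Fkbp5 and Tsc22d3, the genes of a receptor co-chaperone and of GILZ, had the same course: a peak at 4h in Vec, a level still high at D2 and a return near the starting level by D7. Fkbp5 had 20.2, 242, 127 and 15.0 RPKM in Vec at D0, 4h, D2 and D7, and 19.5, 27, 15.4 and 14.3 RPKM in Cre. Only Vec 4h and Vec D2 stood far above the rest, and the other 6 libraries lay between 14.3 and 27 RPKM. Of these, Cre 4h exceeded both D0 libraries beyond counting error, and the 2 D0 libraries did not differ beyond it. In Vec the level at 4h was 12.0 times that at D0, and in Cre 1.39 times (interval 1.27 to 1.51). Vec exceeded Cre 8.97 times at 4h (8.32 to 9.69) and 8.30 times at D2 (7.85 to 8.77). At D7 the ratio was 1.05 (0.955 to 1.14), an interval that includes 1. Among all genes ordered from the most lowered in Cre, Fkbp5 ranked 8 of 11897 at 4h and 9 of 11918 at D2.

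Tsc22d3 had 14, 153, 103 and 16.5 RPKM in Vec in order of time, and 14.4, 18.8, 21.7 and 12.9 RPKM in Cre. Again only Vec 4h and Vec D2 stood apart, and the other 6 formed a series from 21.7 to 12.9 RPKM in which the Poisson intervals of all neighbours overlapped. The level at 4h was 11.0 times that at D0 in Vec and 1.31 times in Cre (1.14 to 1.51). The ratio of Vec to Cre went from 8.13 at 4h (7.20 to 9.20) to 4.74 at D2 (4.45 to 5.05) and 1.28 at D7 (1.14 to 1.44). At D2 Cre itself was 1.51 times above its D0 level, so the smaller ratio at D2 goes with a lower Vec level and a higher Cre level than at 4h. The tables hold a further Tsc22d3 transcript, NM_001077364, and its reads differed from those of NM_010286 by at most 520 (Vec 4h, where NM_010286 had 3697). The ratio of Vec to Cre at 4h was 7.89 from that transcript and 8.13 from the chosen one. At D2 it was 4.12 and 4.74, the first outside the interval of the chosen transcript, and at D7 1.39 and 1.28. The RPKM of the chosen transcript was 1.27 times that of the other in Vec 4h and 0.997 times in Cre D2. The sources used here do not say how reads common to both transcripts were placed.

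Zbtb16, the PLZF gene, differed from the other members in being nearly absent before induction, and in Vec it had its highest level at D2, as Glul did. It had 0.0666 RPKM in Vec D0 (8 reads) and 0.0162 RPKM in Cre D0 (2 reads). In Vec it then had 6.52, 33.8 and 6.91 RPKM at 4h, D2 and D7. In Cre it had 0.406, 1.87 and 0.878 RPKM at those times, so each Vec library after induction lay above every Cre library. Both genotypes nevertheless shared the order of times, with the highest level at D2, although the intervals of Vec 4h and Vec D7 overlap. The ratio of Vec to Cre was 16.1 at 4h (9.78 to 28.4), 18.0 at D2 (15.9 to 20.6) and 7.86 at D7 (6.40 to 9.74). At D2 Zbtb16 ranked 2 of 11918 genes from the most lowered in Cre, and at D7 14 of 12480.

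The few reads at D0 make the size of the Zbtb16 response uncertain. The level in Vec was 98.0 times that of D0 at 4h (49.3 to 228) and 508 times at D2 (257 to 1177). In Cre it was 25.0 times at 4h (5.88 to 224) and 115 times at D2 (31.6 to 958). The Vec response exceeded the Cre response 3.92 times at 4h, with an interval of 0.769 to 19.9 that includes 1, and 4.4 times at D2 (0.929 to 20.8). For Zbtb16 a smaller fold response in Cre was therefore not detectable at this depth, although the levels after induction differed far beyond counting error. In gained RPKM, Cre reached 6.04% of the Vec gain at 4h and 5.50% at D2.

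Errfi1, the gene of the EGF receptor inhibitor, had the highest RPKM of the 6 members at 4h. It had 36.9, 392, 168 and 62.3 RPKM in Vec in order of time, and 35.5, 67.1, 34.4 and 63.8 RPKM in Cre. Vec 4h and Vec D2 were again far above the rest, and at 4h Errfi1 was 1.89 times its D0 level in Cre (1.78 to 2.02), against 10.6 times in Vec. At D2 Cre was back at 0.968 times its D0 level while Vec was still at 4.56 times. The ratio of Vec to Cre was 5.84 at 4h (5.54 to 6.15), 4.90 at D2 (4.71 to 5.11) and 0.977 at D7 (0.932 to 1.02). At D7 both genotypes were above their D0 levels by like folds, 1.69 in Vec and 1.80 in Cre, which is under the 2-fold rule.

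Sgk1, the kinase gene with the receptor motif in 1 of its 6 promoter windows, had the briefest response. It had 14.1, 56.1, 9.48 and 7.14 RPKM in Vec in order of time, and 13.2, 14.5, 5.37 and 10.6 RPKM in Cre. Vec 4h stood alone, and the other 7 libraries lay between 5.37 and 14.5 RPKM. The response at 4h was 3.99 times in Vec, the smallest of the 6, and 1.10 times in Cre, with an interval of 0.956 to 1.27 that includes 1. Vec exceeded Cre 3.86 times at 4h (3.40 to 4.40) and 1.76 times at D2 (1.55 to 2.01), the second of these under the 2-fold rule on the log2(RPKM + 1) scale. At D2 both genotypes were under their D0 levels, at 0.675 times in Vec and 0.407 times in Cre, and Cre passed the rule as lower (7.59% of 12272 genes did). With a pseudocount of 5 its difference was -0.81, short of the rule. At D7 the order was reversed: Vec was 0.673 times Cre (0.581 to 0.777), also under the 2-fold rule. Sgk1 has 6 transcripts in the tables, and their ratios of Vec to Cre at 4h ranged from 3.86 to 4.02.

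Glul, the glutamine synthetase gene, was with Zbtb16 the member still lower in Cre at D7 by the 2-fold rule. In log2(RPKM + 1) it had the widest response in Cre at 4h, D2 and D7. It had 7.04, 72.6, 120 and 98.3 RPKM in Vec in order of time, and 7.26, 15.7, 30.1 and 34.6 RPKM in Cre. Levels after induction were above D0 in all 6 libraries, and from 4h on each Vec library lay above every Cre library. In Vec, Glul was 10.3, 17 and 14 times above D0 at 4h, D2 and D7. In Cre it was 2.16 (1.87 to 2.48), 4.14 and 4.77 times above D0. The ratio of Vec to Cre narrowed from 4.63 at 4h (4.13 to 5.21) to 3.98 at D2 (3.80 to 4.17) and 2.84 at D7 (2.70 to 2.99). In gained RPKM, Cre reached 12.8% of the Vec gain at 4h and 20.3% at D2. By D7 the share was 30.0%.

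**Figure D2:**
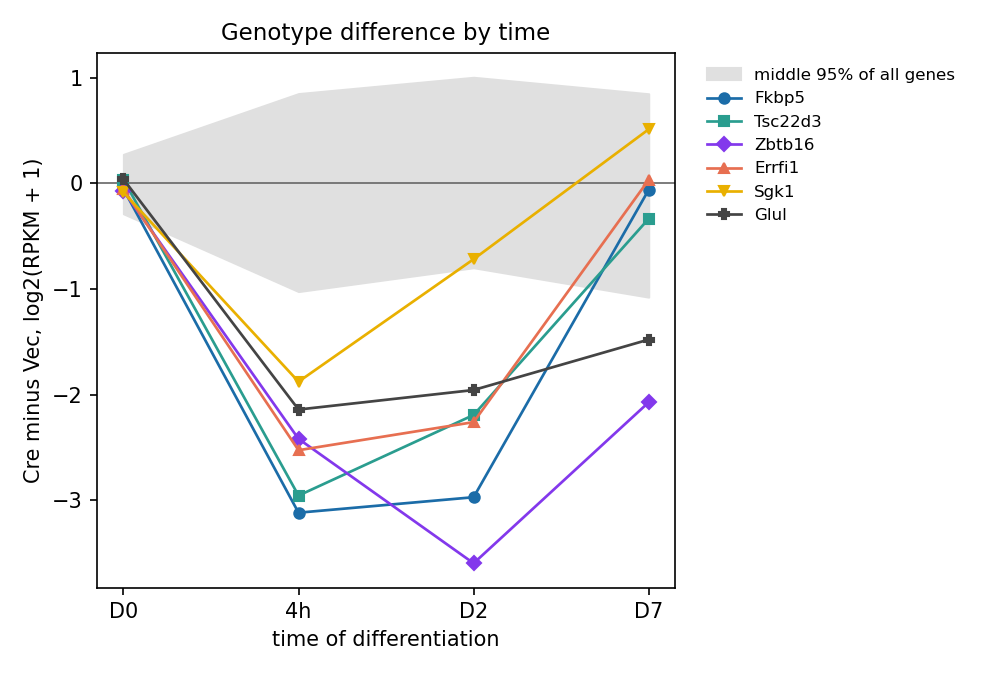
Cre minus Vec in log2(RPKM + 1) for the 6 genes at D0, 4h, D2 and D7, 1 library per genotype and time, with the middle 95% of all genes tested as a grey band; Zbtb16 at D0, under the filter, is drawn too. The 6 genes lie between -3.12 and -1.88 at 4h, while at D7 only Zbtb16 (-2.07) and Glul (-1.48) lie under the band, whose lower edge is -1.08.

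Set side by side, the members divided by how long the Vec level stayed up. Against D0, 5 of 6 were still higher in Vec at D2 (8.9% of 12320 genes) and 2 of 6, Zbtb16 and Glul, at D7 (8.55% of 12522). From D2 to D7, Fkbp5, Tsc22d3, Zbtb16 and Errfi1 were lower in Vec, 4 of 6 against 5.01% of 12321 genes. Between 4h and D2 in Vec, Zbtb16 gained 2.21 in log2(RPKM + 1), while Errfi1 fell by 1.21 and Sgk1 by 2.45. In Cre, Zbtb16 and Glul were higher at D2 than at D0, 2 of 6 against 5.04% of 12272 genes. The Zbtb16 difference was 1.5 and, with a pseudocount of 5, 0.45, short of the rule; Zbtb16 also did not pass an RPKM filter of 5 there. At D7, Glul was the only one of the 5 members that passed the filter in Cre to be higher (4.53% of 12417 genes). All comparisons with D0 within a genotype share that genotype's single D0 library.

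The response at 4h can be compared between genotypes as the ratio of the Vec fold to the Cre fold. This ratio was 8.64 for Fkbp5 (7.81 to 9.57), 8.35 for Tsc22d3 (7.11 to 9.81) and 5.61 for Errfi1 (5.20 to 6.05). It was 4.78 for Glul (4.03 to 5.67), 3.62 for Sgk1 (3.09 to 4.26) and, with the wide interval given above, 3.92 for Zbtb16. Expressed as the share of the Vec gain in RPKM that was seen in Cre, the 4h response was 3.17% for Sgk1, 3.22% for Tsc22d3, 3.39% for Fkbp5 and 8.92% for Errfi1. At D2 the Vec fold exceeded the Cre fold 7.99 times for Fkbp5, 4.87 times for Tsc22d3, 4.71 times for Errfi1 and 4.11 times for Glul, but 1.66 times for Sgk1 (1.41 to 1.95). At D7 the ratio of the folds was 2.93 for Glul (2.56 to 3.36), 1.32 for Tsc22d3 (1.12 to 1.54) and 0.631 for Sgk1 (0.531 to 0.751), the last in the opposite direction. The D7 intervals of Fkbp5 (0.900 to 1.13), Errfi1 (0.874 to 1.01) and Zbtb16 (0.402 to 9.15) include 1.

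**Figure D3:**
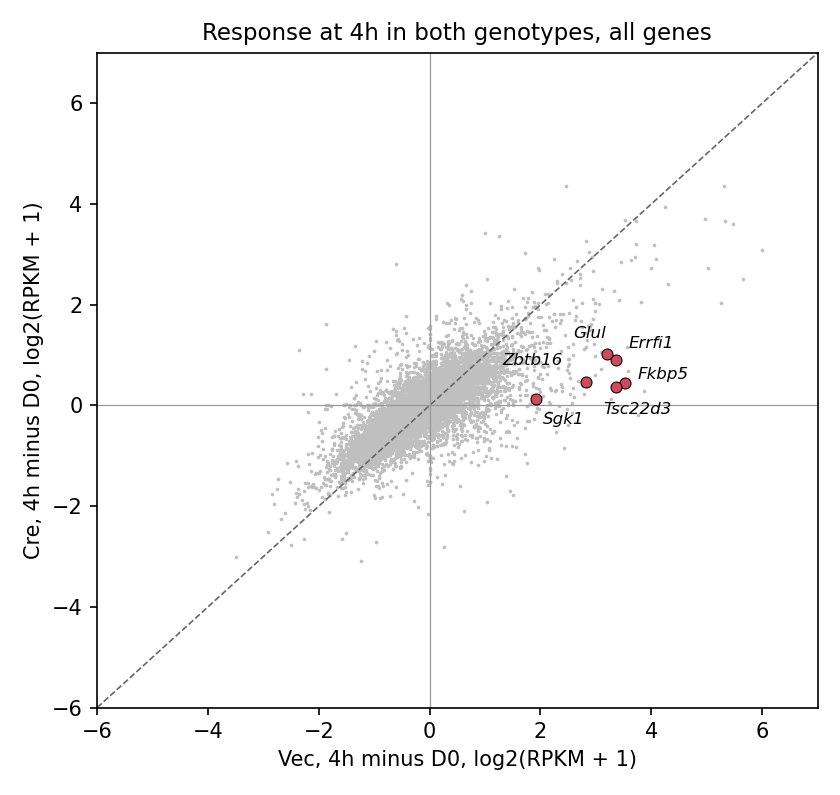
Response at 4h against D0 in Vec (x axis) and in Cre (y axis), both in log2(RPKM + 1), 1 library per genotype and time; grey points are all genes and the dashed line marks equal responses. The 6 genes (red) lie between 1.92 and 3.52 in Vec and all lie under the line, with Glul highest in Cre at 1.01.

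A model over all 8 libraries tested the same loss with an error term. It took the 3 times after induction as repeats of 1 genotype difference, so its error is the departure of the times from a common difference and not the spread between cultures. In 12581 genes, edgeR's quasi-likelihood test called 0 for a loss of induction (0% of the genes at an adjusted p under 0.05). Its unadjusted p was under 0.05 for 303 genes, a smaller share than the 0.05 that no change at all would give. The fit left 2 residual degrees of freedom, so 0 calls do not tell that induction was kept. DESeq2 called 5 genes (0.0397%). All 6 members had negative estimates. The loss for Glul was -1.98 on the log2 scale (SE 0.36), with an unadjusted p of 0.00297 and an edgeR adjusted p of 1. For Fkbp5 it was -2.16 (SE 1.34), its large error going with differences that were wide at 4h and D2 and narrow at D7. For the mean difference between Cre and Vec after induction, edgeR also called 0 genes (0%), with 1981 at an unadjusted p under 0.05. DESeq2 called 341 (2.71%), among them Tsc22d3, Zbtb16, Errfi1 and Glul. The edgeR estimate was -3.72 for Zbtb16 (SE 0.28, adjusted p 0.174), and for Sgk1 it was -0.78 (SE 0.51, adjusted p 0.479).

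Other genes known to be glucocorticoid-induced were set beside the members in a list of 28. In Vec at 4h, 16 of the 26 that passed the filter were higher than at D0 (5.52% of all genes) and 1, Cavin2, was lower (8.04%). In Cre at 4h, 5 of 24 were higher (3.67% of all genes) and 4 were lower (3.69%). The 5 were Cebpd, Mt2, Tiparp, Crispld2 and Angptl4, of which Angptl4 rose more in Cre (2.72) than in Vec (1.95). Of the 4, Rhob and Lpin1 did not fall in Vec. Cavin2 (-1.22 in Cre, -1.35 in Vec) and Cdkn1a (-1.05 and -0.91) fell in both. The list's median response at 4h was 1.58 in Vec and -0.01 in Cre. Compared with Vec, 0 of 24 were lower in Cre at D0 (0.275% of all genes) and 18 of 26 at 4h (2.59%). At D2 14 of 28 were lower (1.54% of all genes) and at D7 3 of 26 (3.12%). The D0 count is near the share over all genes. The medians of Cre minus Vec had values of -1.59 (4h), -1.0 (D2) and -0.34 (D7), so this list had the members' order of times with smaller medians at 4h and D2. The list was chosen with earlier results of these data known, and its counts are a description.

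In that list the widest differences at 4h in log2(RPKM + 1) belonged to Mt2 and Mt1, metal-binding metallothioneins that may share reads, and to Rhob, a small GTPase. Mt2 had 1768 RPKM in Vec 4h and 163 in Cre 4h, Rhob 138 and 15.2, and Mt1 2316 and 312. Rhob rose in Vec from 49.9 RPKM at D0 but fell in Cre from 51.3, so a fall in Cre was part of its gap. Klf9, a transcription factor, had 43.6 and 9.98 RPKM, and Tiparp, an ADP-ribosyltransferase, 60.9 and 13.4 RPKM. Fam107a, wider by ratio, had 5.47 RPKM in Vec 4h (211 reads) and 0.12 in Cre 4h (3 reads). At D7 the 3 genes lower in Cre were Klf15, Tgm2 and Lpin1, at -1.21, -1.38 and -1.13 in log2(RPKM + 1). Of these, Klf15 was also lower at 4h and D2 and Lpin1 at 4h, while Tgm2 was at -0.91 at 4h and -0.98 at D2. Lpin1 went from 10.5 RPKM at D0 to 10.6 at 4h in Vec and from 10.3 to 4.17 in Cre. In the opposite direction, Pck1 was higher in Cre at D2 (2.55% of all genes were) and Crispld2 at D7 (1.39%). Crispld2, unlike any of the 6 members, thus changed from lower in Cre at 4h (ratio of Vec to Cre 3.49) to more than 2-fold higher in Cre at D7 (ratio 0.296).

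Close relatives of the members were 20 genes of the FKBP, TSC22, ZBTB, SGK and ERBB families and of glutamine metabolism. None of the 16 or 17 that passed the filter was lower or higher in Cre at any of the 4 times, where 1.65% of all genes were higher in Cre at 4h. As 2.59% of all genes were lower at 4h, a count of 0 in so short a list is near that share. The relatives' median of Cre minus Vec at 4h was 0.08, against -2.47 for the members. The widest values at 4h were 0.90 for Egfr, the receptor that the Errfi1 protein inhibits, and -0.57 for Tsc22d4. Both were under the rule but beyond counting error. Their ratios of Vec to Cre were 0.504 (0.451 to 0.564) and 1.52 (1.32 to 1.76). Tsc22d1 was higher at 4h than at D0 in both genotypes, by 1.5 in Vec and 1.11 in Cre.

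Of 12 genes known to be induced by cAMP, most were higher at 4h than at D0 in both genotypes. At 4h, 10 of the 11 that passed the filter were higher in Vec (5.52% of all genes) and 10 of 11 in Cre (3.67%). Their medians were 2.58 and 2.05. Fos did not pass the rule in either genotype (0.74 in Vec, 0.13 in Cre), and Ppargc1a did not pass the filter. Compared with Vec at 4h, 4 were lower in Cre (2.59% of all genes): Rgs2 by -2.72, Nr4a1 by -1.63, Pde4b by -1.10 and Sik1 by -1.09 in log2(RPKM + 1). Rgs2, a regulator of G-protein signalling, was also the only one lower at D2 (1.54% of all genes) and at D7 (3.12%). The median of Cre minus Vec at 4h was -0.52, against -2.47 for the members.

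**Figure D4:**
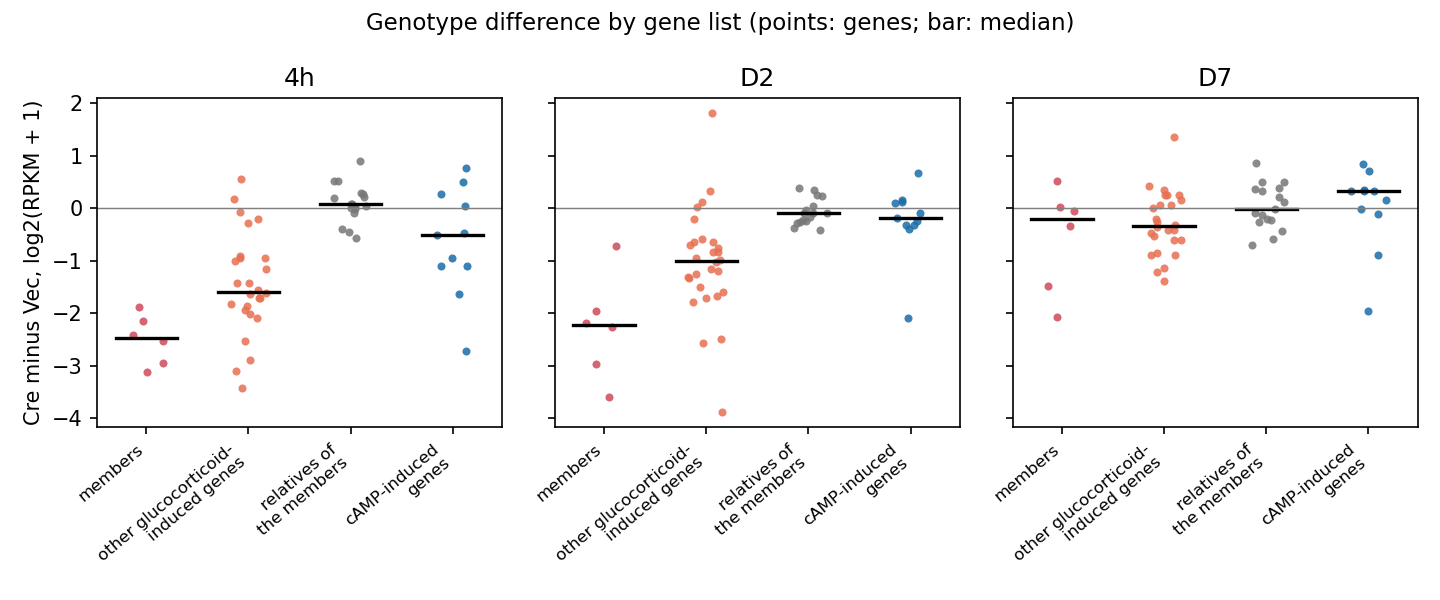
Cre minus Vec in log2(RPKM + 1) for the 6 members, 28 other glucocorticoid-induced genes, 20 close relatives and 12 cAMP-induced genes, in panels for 4h, D2 and D7, with each point a gene that passed the filter and each bar the list's median. At 4h the medians are -2.47, -1.59, 0.08 and -0.52 in that order, and at D7 the members' median is -0.20.

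The summed adipocyte markers differed most between the genotypes at D7. The ratios of Vec to Cre of Zbtb16 and Glul were wider at 4h and D2 than at D7. The summed RPKM of 5 adipocyte markers (Fabp4, Adipoq, Plin1, Pparg, Cebpa) was 27.6 in Vec and 27.9 in Cre at D0, 41.2 and 34.8 at 4h, and 1502 and 1423 at D2. The D2 sums were mostly Fabp4, at 1159 RPKM in Vec and 990 in Cre, and the single markers differed in direction. Adipoq was higher in Cre at D2 by the rule (2.55% of all genes were), with 59.7 RPKM in Vec and 144 in Cre. Plin1 had 33.0 and 50.5 RPKM, Pparg 43.9 and 33.7, and Cebpa 207 and 205. At D7 the sum was 3856 in Vec and 1365 in Cre, with all 5 markers lower in Cre. At that time Zbtb16 and Glul were still lower in Cre by the 2-fold rule and the other 4 members were not. Under that rule, Tsc22d3 was still lower in Cre beyond counting error, with a ratio of Vec to Cre of 1.28 (1.14 to 1.44). The part of this marker difference in the D7 values of Zbtb16 and Glul was not tested. Of the 5 markers, 3 reached an RPKM of 1 at 4h, and Adipoq and Plin1 were at 0 reads in both genotypes. At 4h against D0, Pparg differed by 1.36 in Vec and 0.92 in Cre in log2(RPKM + 1), the second under the rule. Adipoq was lower by the rule in both genotypes, at -1.87 and -1.58. Fabp4 (0.34 in Vec, -0.15 in Cre) and Cebpa (0.63 and 0.84) did not pass it. Preadipocyte markers, 4 of 4 above an RPKM of 1 in every library, summed to 147 to 289 RPKM, with 155 in Vec D7 and 289 in Cre D7. At D0 Ucp1 and Cidea, markers of mature brown adipocytes, were at 0 reads in both genotypes. The brown markers summed to 63.5 RPKM in Vec and 45.1 in Cre at D7, of which Cox8b made up 49.7 and 41.2. Cidea was lower in Cre at D7 by the rule (3.12% of all genes were), with 7.36 RPKM in Vec and 1.29 in Cre. Ppargc1a had 5.54 and 2.52 RPKM, and Ucp1 stayed under 1 RPKM (0.88 and 0.07). Sums of muscle, macrophage and endothelial markers did not exceed 5.23, 0.32 and 3.12 RPKM.

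The genes whose pattern was most like that of each member were found by Pearson's r of log2(RPKM + 1) over the 8 libraries, among 5338 genes. The 8 points share times, genotypes and library depth, so r is a description. Fkbp5 was most like Tsc22d3 (r = 0.973), followed by Ube2g2 and Sav1. Tsc22d3 was most like Serpina3m (r = 0.996), whose paralogs may share its reads, and Cab39. Errfi1 was most like the clock gene Per1 (r = 0.987). Sgk1 was most like Ctla2a (r = 0.989), which had 41.8 RPKM in Vec 4h and at most 6.80 in any other library. Zbtb16 was most like Cyb5a (r = 0.974) and Glul most like Klhl2 (r = 0.996). Among the members themselves, r ranged from -0.003 (Sgk1 and Glul) to 0.973 (Fkbp5 and Tsc22d3). Zbtb16 and Glul, the pair still lower in Cre at D7 by the rule, had r = 0.918. Fkbp5 and Errfi1 (0.928) and Tsc22d3 and Errfi1 (0.915) had like values. The first pair was picked by values that also enter its r.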

How the data were processed

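RNA sequencing covered 8 of the 30 samples, 1 library per genotype and time. Per the file headers, the authors deposited a read count and an RPKM value for each of 29082 RefSeq transcripts. The submitters' processing notes name CASAVA 1.8.2, SICER and the assembly mm9, with no role. For the RNA aligner and read counter, nothing is given in the sources used here. Count divided by RPKM gave 1 total per library and transcript lengths within 0.02 nucleotides of whole numbers, and these totals were taken as the depth. Symbols came from a RefSeq table of GRCm38.p6 (28436 transcripts, 97.8%, matched), and the transcript with the most reads stood for a gene. Promoter sequences came from RefSeq, GRCm38.p6, and were matched by symbol.

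Deposited RPKM values gave levels and differences, with a pseudocount of 1. Deposited counts gave ratio intervals (exact conditional binomial), level intervals (exact Poisson) and the model of time, Cre and Cre after induction. It was fitted by edgeR 4.0.16 in R 4.3.3 (TMM scaling, genes reaching 1 RPKM in 2 or more libraries, Benjamini-Hochberg, threshold 0.05, 2 residual degrees of freedom). Limma 3.58.1 and DESeq2 1.42.0 were alternatives, beside other pseudocounts, filters, scalings and transcripts and leaving out each time. The code was tested on simulated data. Members and lists were chosen with earlier results of these data known. Named were the members, Nr3c1 and the genes most like each member. From each list, up to 6 genes with the widest difference at 4h were named. Genes in small counts at 4h, D2 or D7, and exceptions to a count, were named too.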

Additional observations from a re-analysis of the deposited data

Results flagged for a closer look

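For 2 genes the response at D2 went in opposite directions in the genotypes, with 1 library per group, so the difference was not tested. Fkbp5 was higher at D2 than at D0 in Vec, by 2.60 in log2(RPKM + 1), and lower in Cre, by -0.32, a difference between the responses of 2.921. Errfi1 was higher by 2.16 in Vec and differed by -0.05 in Cre, a difference of 2.206. The Errfi1 value in Cre is within counting error of 0, since the Poisson intervals of Cre D0 and Cre D2 overlap, whereas those of Fkbp5 in these libraries do not.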

How the results depend on the processing

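No difference past the rule or the threshold changed direction under any alternative run; that of Errfi1 at D7, near 0, ranged from -0.01 to 0.03. Of the members, 6 stayed lower in Cre at 4h, 5 at D2 and 2 at D7 under every pseudocount, filter, scaling and transcript choice tried. A pseudocount of 5 in place of 1 lowered the counts over all genes. Genes lower in Cre then numbered 3, 147, 79 and 171 in order of time (main counts 33, 308, 183 and 389). Genes higher than at D0 numbered 349, 533 and 550 in Vec and 201, 279 and 216 in Cre at 4h, D2 and D7 (main counts 671, 1097, 1071, 447, 619 and 563). Members higher in Cre numbered 0 at 4h, where Glul was at 0.75, and 1 at D2, where Zbtb16 was at 0.45; Sgk1, lower in Cre D2, was at -0.81. With a pseudocount of 0.1, genes lower in Cre numbered 54 at D0, 276 at D2 and 593 at D7. With an RPKM filter of 5 they numbered 8 at D0, members higher in Cre D2 numbered 1, as Zbtb16 did not pass the filter, and genes higher in Cre D7 numbered 353.

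In the model, DESeq2 called 5 genes for the loss of induction, 1 of them a member (Glul, adjusted p 0.0364). Taking both D0 libraries as alike, edgeR called 163 genes, 2 of them members (Zbtb16 and Glul, both at an adjusted p of 0.0277). For the mean difference after induction, edgeR without the filter on low values called 10 genes, 2 of them members (Zbtb16, adjusted p 0.0371, and Glul, 0.0403), and DESeq2 called 341 genes, 4 of them members. Leaving out each time in turn gave 0 calls for both results. The main fits also gave 0, and those without a time have fewer residual degrees of freedom, so this does not show stability. Under TMM scaling Vec 4h shifted as a whole by 0.12 (log2), and no other library by over 0.1. Low depth limits Zbtb16 at D0, where 8 and 2 reads were counted.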
